A study of Homo sapiens with 6 samples.

Results

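Aminoacyl-tRNA synthetases are the enzymes that attach each amino acid to its transfer RNA (tRNA). The cytosolic enzymes supply the cytosolic ribosomes, and a second, nuclear-encoded set is imported into mitochondria for the proteins made there. Some of the cytosolic enzymes sit together in a large multi-synthetase complex, and many cytosolic synthetase genes are known targets of ATF4, a transcription factor of the amino acid and integrated stress responses. Here 36 synthetase genes were described, 20 cytosolic and 16 mitochondrial (names ending in 2), of 26819 genes listed in the table of expression values. They were chosen by symbol and not by a measured value, although earlier results of these data were known at the time. All 36 passed the filter on low values and were among the 14833 genes tested.

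The cells were C4-2, a human prostate cancer line, carrying Tet-O-YAP5SA. Tet-O marks a promoter switched on through doxycycline (Dox), and YAP5SA is a form of the Hippo pathway coactivator YAP1 whose inhibitory phosphorylation sites were changed from serine to alanine. Both groups had this genotype and the same medium, RPMI-1640 with 10% serum: 3 libraries without the drug (Ctrl 1 to 3) and 3 with Dox for 24 hours (Dox 1 to 3), at a dose the labels give as 0.2 mg/ml, a unit that could not be checked. No cells lacking the transgene were given Dox. Tetracyclines are known to block mitochondrial ribosomes, so an effect of the drug and one of YAP5SA cannot be told apart. Nothing says that the libraries of a group came from separate cultures, or whether the line is 1 clone, so p-values here reflect only how far these libraries scatter, and that scatter may be technical.

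Values are TPM, which count reads per unit of gene length and make each library sum to 1000000. Genes were called higher or lower in Dox with limma on log2(TPM + 1) at a Benjamini-Hochberg adjusted p under 0.05. Libraries held 24914226 to 29207519 recovered reads, with 1673 to 13162 for a cytosolic synthetase and 84 to 10617 for a mitochondrial one. YAP1 was at 56.8 ± 3.72 TPM in Ctrl and 269 ± 6.92 in Dox (SD, n = 3), the YAP1 targets CYR61 and CTGF went from 11.98 to 2648 TPM and from 0.350 to 398 TPM, and MYC rose 2.20-fold. The luminal prostate markers KLK3, KRT8 and KRT18 were present, while the basal markers KRT5 and TP63 stayed at or under 0.0276 TPM, the basal marker KRT14 lay at 1.17 to 1.75 TPM, and fibroblast and leukocyte markers were at or under 0.316 TPM. Of 7 luminal markers listed 4 fell and 2 rose, beside 17.8% lower and 35.9% higher over all tested genes. The median log2 fold change of these markers was -0.32. KLK3 fell from 3297 to 1795 TPM, KRT8 and KRT18 rose from 473 to 582 TPM and from 523 to 716 TPM, and the endothelial gene VWF rose from 1.25 to 3.74 TPM. The part of these shifts in the synthetase values was not tested. Of all tested genes 53.7% were called, and the median log2 fold change was 0.10. Values are shares of each library, and fewer expressing cells and less RNA per cell cannot be told apart.

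Of 20 cytosolic genes 9 fell, 2 rose and 9 were not called, with a median log2 fold change of -0.05. Of 16 mitochondrial genes 8 rose, 4 fell and 4 were not called, with a median of 0.21. Over all tested genes 17.8% were lower and 35.9% higher. The ranges of the Ctrl and Dox libraries were apart for 11 cytosolic and 14 mitochondrial genes, where 61.9% of all tested genes had ranges apart. The changes were small: only MARS2 moved by more than 1.5-fold. Summed over the group, cytosolic synthetase transcripts made up 2347 to 2452 TPM in the Ctrl libraries and 2176 to 2241 TPM in the Dox libraries. The mitochondrial sum was 638 to 670 TPM in Ctrl and 662 to 684 TPM in Dox, and these ranges overlapped.

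**Figure D1:**
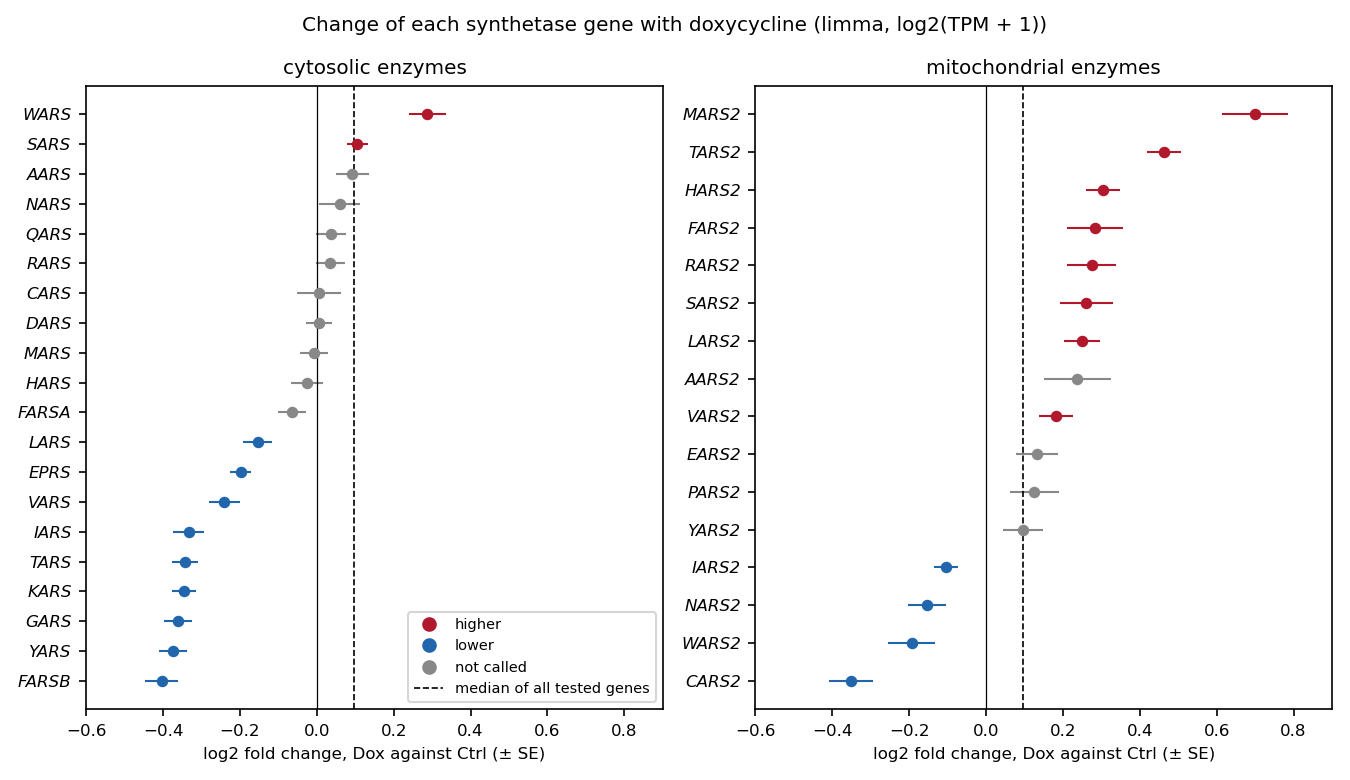
Log2 fold change (Dox against Ctrl, on log2(TPM + 1), with its standard error) of each synthetase gene, coloured by its call, with the median of all tested genes (0.10) as a dashed line. Most cytosolic genes lie at or left of it, and MARS2 and TARS2 are farthest to the right.

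Levels differed far more between genes than between groups. The cytosolic genes ranged in Ctrl from 21.9 TPM for CARS, the cysteine enzyme, to 269 TPM for EPRS, which joins the glutamate and proline enzymes in 1 protein, with a median of 99.6 TPM. Such levels depend on the gene length used, which for CARS was 10037 bases, with 1673 to 1999 reads a library. The mitochondrial genes ranged from 3.70 TPM for MARS2 to 291 TPM for IARS2, with a median of 22.3 TPM. At least 50 TPM was reached in Ctrl by 18 cytosolic genes but by only 2 mitochondrial ones, IARS2 and NARS2.

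**Figure D2:**
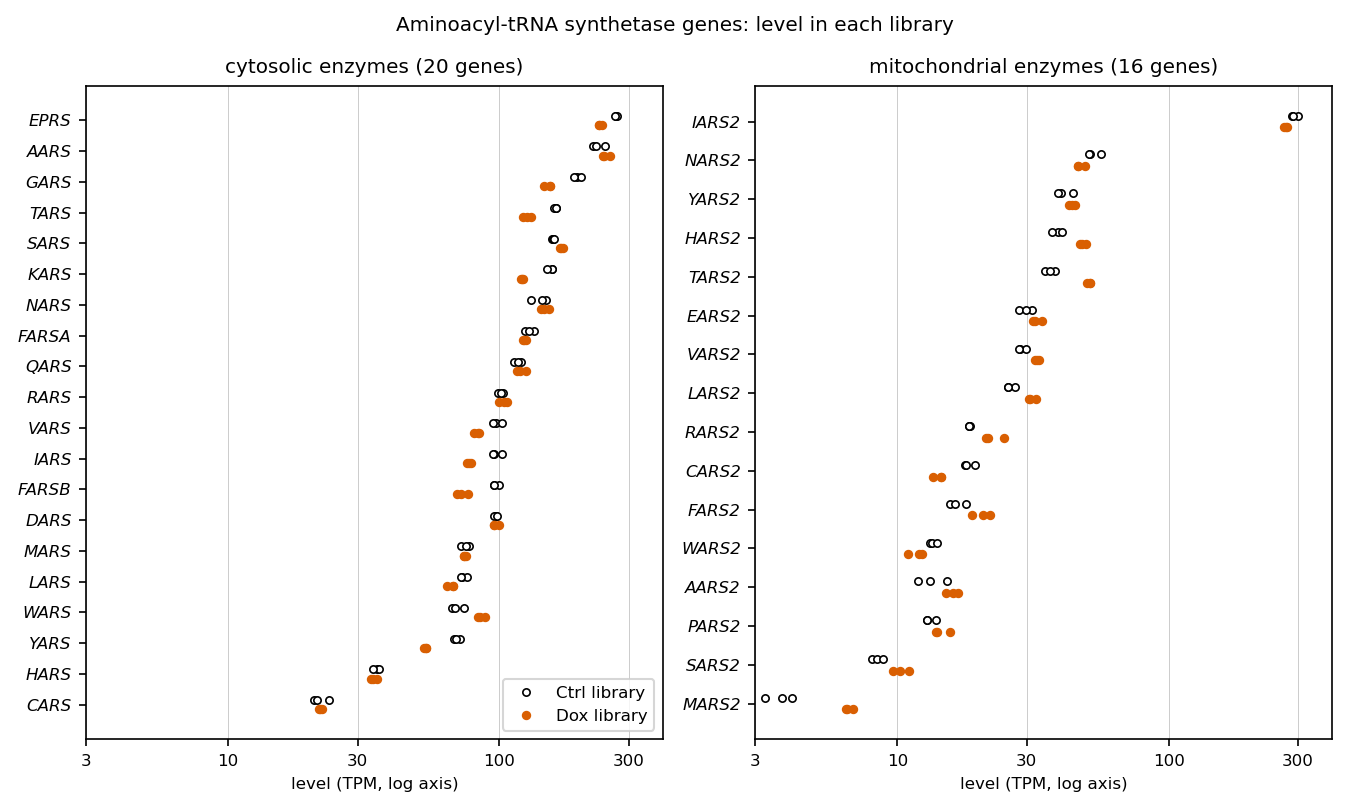
TPM (log axis) of every synthetase gene in each of the 3 Ctrl and 3 Dox libraries, cytosolic and mitochondrial genes in separate panels. The cytosolic genes lie around a Ctrl median of 99.6 TPM and the mitochondrial ones around 22.3 TPM, with IARS2 far above the rest of its panel.

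The 9 cytosolic genes that fell lost 10.2% to 24.6% of their mean TPM. FARSB, the beta subunit of phenylalanyl-tRNA synthetase, was at 95.7, 99.6 and 95.2 TPM in Ctrl 1 to 3 and at 76.6, 72.4 and 69.9 TPM in Dox 1 to 3. All 3 Dox libraries were below all Ctrl libraries, a change of -0.40 ± 0.04 on the log2 scale (SE; limma adjusted p = 0.000159). Its partner FARSA, the alpha subunit of the same tetramer, was at 125, 134 and 129 TPM in Ctrl and 122, 125 and 123 TPM in Dox. The FARSA groups overlapped, and its log2 fold change of -0.06 (95% interval -0.15 to 0.02) was not called, but it was called lower after median-ratio rescaling (-0.17, limma adjusted p = 0.00171), after quantile normalization, with voom on recovered reads and with each library's trend of expression with gene length removed. The ratio of FARSB to FARSA was 0.768, 0.743 and 0.740 in the Ctrl libraries and 0.630, 0.578 and 0.566 in the Dox libraries, so that the subunits changed unequally in every Dox library (exact two-sided permutation p = 0.1, the smallest that 3 against 3 allows).

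YARS, the tyrosine enzyme, was at 67.8, 71.3 and 68.9 TPM in Ctrl and 53.6, 52.5 and 53.5 TPM in Dox. The Dox libraries lay close together and below every Ctrl library (log2 fold change -0.37 ± 0.04, limma adjusted p = 8.87e-05). TARS, the threonine enzyme, was at 161, 159 and 161 TPM in Ctrl and 130, 127 and 122 TPM in Dox. These groups were apart too, by -0.34 ± 0.03 on the log2 scale (limma adjusted p = 9.47e-05). VARS, the valine enzyme, fell by 15.6% of its mean, from 98.1 ± 3.84 to 82.8 ± 2.06 TPM (limma adjusted p = 0.0016).

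GARS and KARS, the glycine and lysine enzymes, are each known to supply both compartments from 1 gene, and both fell. GARS was at 193, 200 and 189 TPM in Ctrl and 153, 153 and 145 TPM in Dox. KARS was at 156, 156 and 150 TPM in Ctrl and 120, 122 and 121 TPM in Dox. For both genes each Dox library was below each Ctrl library, with log2 fold changes of -0.36 ± 0.04 and -0.35 ± 0.03 (limma adjusted p = 0.000124 and 7.11e-05). They were counted with the cytosolic genes, and gene-level values do not separate transcripts for the mitochondrial form.

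Of the 8 enzymes of the multi-synthetase complex, KARS, IARS, EPRS and LARS fell and none rose, while DARS, MARS, QARS and RARS were not called. IARS, the isoleucine enzyme, went from 97.6 ± 4.04 to 77.2 ± 1.24 TPM. EPRS went from 269 ± 2.504 to 235 ± 3.12 TPM and LARS, the leucine enzyme known also as a leucine sensor of mTORC1, from 73.6 ± 1.77 to 66.1 ± 1.94 TPM. Their limma adjusted p were 0.000274, 0.000564 and 0.0107, and the groups were apart in each case. Among the 12 cytosolic genes outside the complex 5 fell and 2 rose. The shares over all tested genes were 17.8% lower and 35.9% higher. By catalytic fold, 4 of 9 class I and 4 of 10 class II cytosolic genes fell and 1 of each rose, leaving out EPRS, whose protein holds an enzyme of both classes.

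The 2 cytosolic genes that rose were WARS and SARS. WARS, the tryptophan enzyme and a known interferon-induced gene, was at 66.9, 74.2 and 68.4 TPM in Ctrl and 84.6, 88.6 and 83.0 TPM in Dox. All Dox libraries were above all Ctrl libraries (log2 fold change 0.29 ± 0.05, limma adjusted p = 0.0017). SARS, the serine enzyme, went from 157 ± 1.496 to 169 ± 2.15 TPM (log2 fold change 0.11 ± 0.03, limma adjusted p = 0.0149). This increase is close to the median of all genes, and after median-ratio rescaling the SARS log2 fold change was -0.00 with a limma adjusted p of 0.929. WARS stayed called, at 0.18 after that rescaling and at 0.10 with each library's trend of expression with gene length removed.

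The other 9 cytosolic genes were AARS, CARS, DARS, FARSA, HARS, MARS, NARS, QARS and RARS. Their log2 fold changes lay between -0.06 and 0.09, and the 95% intervals reached from -0.15 to 0.19 at the widest. FARSA, HARS and MARS were called lower under median-ratio rescaling, at -0.17, -0.13 and -0.12 on the log2 scale, and also under quantile normalization and with the length trend removed. DARS was called lower under median-ratio rescaling too, at -0.10, and CARS under quantile normalization, at -0.14. With the length trend removed CARS, DARS and QARS were lower as well. AARS was called higher without Ctrl 2 (0.13, limma adjusted p = 0.0257) and with a replicate block (limma adjusted p = 0.0342). AARS, the alanine enzyme and the most abundant of them, was at 222, 244 and 227 TPM in Ctrl and 242, 255 and 242 TPM in Dox. Its groups overlapped, as did those of the other 8.

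Among mitochondrial genes, MARS2, the methionine enzyme, changed most and was the scarcest of the 36. It was at 3.76, 4.08 and 3.26 TPM in Ctrl 1 to 3 and at 6.84, 6.46 and 6.53 TPM in Dox 1 to 3, from 84 to 174 reads a library. The groups were far apart, a 1.79-fold difference of means (log2 fold change 0.70 ± 0.09, limma adjusted p = 0.000346). The log2(TPM + 1) scale understates the change of a gene this low.

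TARS2, the mitochondrial threonine enzyme, was at 35.0, 38.2 and 36.5 TPM in Ctrl and 51.2, 51.1 and 49.8 TPM in Dox. Each Dox library was above each Ctrl library (log2 fold change 0.46 ± 0.04, limma adjusted p = 8.48e-05). HARS2, the mitochondrial histidine enzyme, was at 39.0, 40.5 and 37.2 TPM in Ctrl and 49.5, 48.1 and 47.2 TPM in Dox, again without overlap (0.30 ± 0.04, limma adjusted p = 0.000878).

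The other 5 that rose were FARS2, RARS2, LARS2, SARS2 and VARS2, the phenylalanine, arginine, leucine, serine and valine enzymes, at 13.9% to 23.1% above their Ctrl means. LARS2 went from 26.2 ± 0.928 to 31.3 ± 0.947 TPM and RARS2 from 18.5 ± 0.0912 to 22.6 ± 1.94 TPM, with limma adjusted p of 0.00278 and 0.00811. Calls of FARS2, SARS2 and VARS2 (limma adjusted p = 0.0124, 0.0144 and 0.00922) were lost under median-ratio rescaling and under quantile normalization, that of RARS2 under the latter alone. That of LARS2 was lost with each library's trend of expression with gene length removed (log2 fold change 0.09, limma adjusted p = 0.0682). In GENCODE 29, 46.2% of the exon bases of SARS2 are shared with a readthrough gene on its strand, AC011455.2, and 21.99% of those of VARS2 with GTF2H4, so the reads of these genes could have been divided or dropped in counting.

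CARS2, the mitochondrial cysteine enzyme, fell. It was at 19.4, 17.8 and 17.9 TPM in Ctrl and 13.5, 14.5 and 14.5 TPM in Dox, with the groups apart (log2 fold change -0.35 ± 0.06, limma adjusted p = 0.00143). WARS2, NARS2 and IARS2 were lower by smaller amounts. WARS2, the tryptophan enzyme, went from 13.6 ± 0.459 to 11.7 ± 0.719 TPM, NARS2, the asparagine enzyme, from 52.8 ± 2.90 to 47.3 ± 1.61 TPM, and IARS2, the isoleucine enzyme, from 291 ± 8.37 to 270.2 ± 3.32 TPM. Their limma adjusted p were 0.0312, 0.0327 and 0.0239, and each of these 3 calls was lost when single libraries were left out. Without Dox 3 only CARS2 stayed lower, and without Ctrl 2, Ctrl 3 or Dox 2 there were 2 lower calls.

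AARS2, EARS2, PARS2 and YARS2 were not called. Their log2 fold changes were 0.10 to 0.24, with 95% intervals from -0.03 to 0.44 at the widest, so an increase as large as that of HARS2 lies within the interval of AARS2. AARS2, at 13.2, 15.2 and 11.96 TPM in Ctrl and 16.1, 16.8 and 15.2 TPM in Dox, came nearest (limma adjusted p = 0.0509), and its groups overlapped at Ctrl 2 and Dox 3. Without Ctrl 2, AARS2, EARS2 and YARS2 were called higher, at 0.32, 0.17 and 0.15 on the log2 scale. AARS2 was also called higher with the filter at a mean of 5 TPM, with a replicate block and with voom on recovered reads, and EARS2 with the block.

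For 13 amino acids both enzymes were in the set, and multiplying all values of a library by a common factor does not change their ratio. Quantile normalization and removal of the length trend can change the ratio. The cytosolic gene was above its mitochondrial counterpart in every library for 11 of the 13. The exceptions in TPM were histidine and isoleucine, where HARS2 exceeded HARS and IARS2 exceeded IARS in every library. The histidine order rests on gene length. HARS had 2129 to 2671 reads a library over a fitted length of 8436 bases, and HARS2 had 1081 to 1420 over 3422 bases. For isoleucine, IARS2 had more reads as well (8433 to 10617, against 4287 to 6373 for IARS). The ratio of cytosolic to mitochondrial transcript was lower in Dox for 10 amino acids and higher for 3, asparagine, cysteine and tryptophan. In all 13 the 3 Ctrl and 3 Dox ratios were apart. Of all tested genes taken singly 61.9% had ranges apart, and no such share was computed for ratios of other gene pairs. Each of the 13 ratios gave an exact two-sided permutation p of 0.1, the smallest that 3 against 3 libraries can give, also after adjustment over the 13. The median change was -0.25 on the log2 scale.

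The shift was greatest for methionine and threonine. The MARS to MARS2 ratio was 19.3, 19.0 and 23.0 in Ctrl 1 to 3 and 10.99, 11.5 and 11.3 in Dox 1 to 3. MARS itself had a log2 fold change of -0.01 and was not called. The TARS to TARS2 ratio was 4.604, 4.18 and 4.41 in Ctrl and 2.54, 2.47 and 2.46 in Dox, with TARS lower and TARS2 higher.

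Such opposite calls were made for 4 amino acids: threonine, leucine, valine and tryptophan. Of the calls behind them, those of VARS2, WARS2 and LARS2 were lost under some alternatives, VARS2 turning to -0.04 with the trend of expression with gene length removed, and both threonine calls were made under all 15. Leucine went from a LARS to LARS2 ratio of 2.86, 2.78 and 2.81 to one of 2.19, 2.08 and 2.07. Tryptophan went the other way, with WARS higher and WARS2 lower, and the ratio was 5.08, 5.51 and 4.86 in Ctrl and 6.88, 7.37 and 7.60 in Dox. For cysteine the ratio rose from a geometric mean of 1.19 to 1.55 while CARS itself had a log2 fold change of 0.01.

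**Figure D3:**
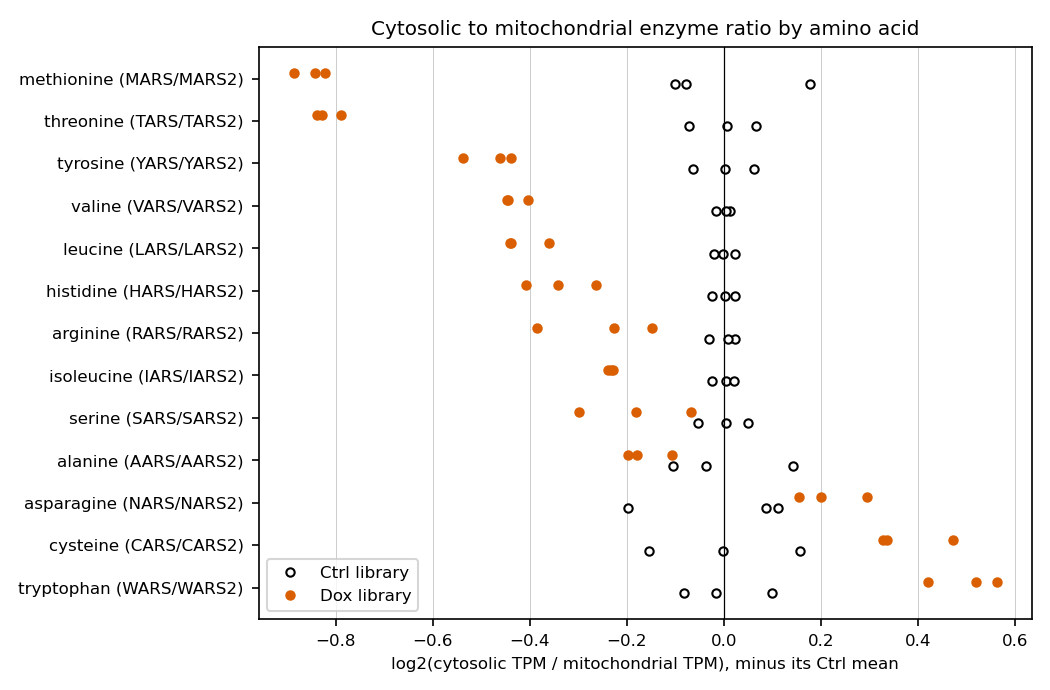
Log2 ratio of the cytosolic to the mitochondrial synthetase transcript for 13 amino acids in each library, relative to the mean of the Ctrl libraries. In 10 amino acids the 3 Dox libraries lie below all Ctrl libraries, with methionine and threonine lowest, and in asparagine, cysteine and tryptophan they lie above.

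HARS and HARS2 lie head to head on chromosome 5. Their annotated starts (RefSeq, GRCh38.p14) are at 140691370 for HARS, on the minus strand, and 140691455 for HARS2, on the plus strand, so that their promoter windows (250 bases before to 50 after the start) share 184 bases. The sequence from start to start is shown because transcription of these genes leaves it in opposite directions. Capitals mark the first base of each gene, at chr5:140691370-140691455 on the plus strand.
HARS to HARS2: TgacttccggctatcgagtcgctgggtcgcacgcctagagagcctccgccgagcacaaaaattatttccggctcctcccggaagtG
HARS was at 35.3, 35.998 and 34.1 TPM in Ctrl and 33.7, 34.3 and 35.5 TPM in Dox, with overlapping groups and a log2 fold change of -0.03 (95% interval -0.12 to 0.07). HARS2 rose by 24.0% in the same libraries, and the ratio of HARS to HARS2 went from 0.904, 0.888 and 0.918 to 0.681, 0.713 and 0.752. In GENCODE 29, 8.38% of the exon bases of HARS overlap HARS2 or WDR55 on the opposite strand, and 11.7% of those of HARS2 overlap HARS. Whether the authors counted by strand is not known from the sources used here.

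Of the cytosolic genes, 12 are known as ATF4 targets. In these, 6 fell (YARS, GARS, TARS, IARS, EPRS and LARS), 2 rose (WARS and SARS) and 4 were not called (AARS, CARS, MARS and NARS). Among the other 8 cytosolic genes 3 fell (FARSB, KARS and VARS), none rose by the limma test and 5 were not called. The shares over all tested genes were 17.8% lower and 35.9% higher. ATF4 acts with C/EBP partners at an element whose core is TGATGCAA. Promoter windows from RefSeq (GRCh38.p14) were matched for 16 cytosolic and 14 mitochondrial genes and searched for TGATGCAA on both strands (TTGCATCA on the other). It was found in 6 cytosolic windows, in none of the mitochondrial windows, and in 0.866% of all 35116 windows of that length. The 6 stretches are shown because they are what these genes' windows share. They are written along each gene's strand with the core in capitals.
AARS, chr16:70289675-70289704, minus strand: ttttctcgcagTTGCATCAgccaagttaga
CARS, chr11:3057407-3057436, minus strand: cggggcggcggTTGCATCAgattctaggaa
IARS, chr9:92293692-92293721, minus strand: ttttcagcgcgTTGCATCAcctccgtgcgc
MARS, chr12:57488053-57488082, plus strand: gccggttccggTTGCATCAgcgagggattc
NARS, chr18:57621804-57621833, minus strand: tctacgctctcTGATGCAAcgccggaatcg
TARS, chr5:33440956-33440985, plus strand: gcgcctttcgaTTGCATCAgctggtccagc
In 5 of them the core begins within 14 bases of the annotated start, and in AARS it lies farther upstream. Of these 6 genes IARS and TARS fell and 4 were not called. Among the 10 other cytosolic genes with a window 4 fell, 2 rose and 4 were not called. A match is a run of letters and not a bound site, and a window without it says only that these letters are not there. DARS, LARS, VARS, YARS, AARS2 and VARS2 had no matched window.

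The other cores were searched in the same windows, and no match overlapped another. CACGTG, the E-box bound by MYC and related factors, was in the windows of IARS, CARS2, EARS2 and MARS2 and in 7.26% of all windows. Of these, IARS and CARS2 fell, MARS2 rose and EARS2 was not called. The window of MARS2 is shown for the mitochondrial gene that moved most, with the core in capitals.
MARS2, chr2:197705347-197705374, plus strand: tgcgcctctcaCACGTGctgtcagaacg
CATTCC, the core read by the TEAD partners of YAP1 (GGAATG on the other strand), was in the windows of WARS2 and YARS2 and in no cytosolic window, beside 14% of all windows. WARS2 was called lower and YARS2 was not called.

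ATF4 itself fell, from 426 ± 13.2 to 266 ± 9.80 TPM (limma adjusted p = 5.15e-06). Its wider program was listed as 31 genes, ATF4 included and synthetases left out. Of these, 30 were tested, 21 fell and 4 rose, beside 17.8% and 35.9% of all tested genes. CHAC1, a glutathione-degrading enzyme, fell 4.36-fold, DDIT3, the stress factor CHOP, 3.23-fold, and SLC7A5, a transporter of large neutral amino acids, 2.58-fold. PPP1R15A, a phosphatase subunit that reverses eIF2 phosphorylation, rose 1.91-fold. CTH, an enzyme of cysteine synthesis, and the transcription factor ATF5 rose 1.42-fold and 1.39-fold. The median log2 fold change of this list was -0.37, against -0.08 for the 12 synthetases known as ATF4 targets. DDIT3 lies on the opposite strand of MARS, where together with ARHGAP9 it overlaps 12.4% of the MARS exon bases. Whether reads of these genes moved the MARS value was not tested.

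Of 7 genes for eIF2 kinases and their partners 3 rose and 1 fell, beside 35.9% and 17.8% of all tested genes. EIF2AK4 (GCN2), the kinase that senses uncharged tRNA, was at 35.5 ± 0.675 TPM in Ctrl and 37.4 ± 0.966 TPM in Dox and was not called (limma adjusted p = 0.175), although with each library's trend of expression with gene length removed it was lower, at -0.18 on the log2 scale (limma adjusted p = 0.00272). EIF2AK2, the kinase PKR, rose 1.47-fold, EIF2S1, which encodes eIF2 alpha, rose 1.35-fold, and EIF2AK3, the kinase PERK, fell 1.45-fold. EIF2AK1 was 1.09-fold higher, a call lost under both rescalings, and with the length trend removed its log2 fold change was -0.04.

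Among genes for proteins that work beside the cytosolic synthetases, only those of elongation factor 1 gave more decreases than increases. The shares over all tested genes were 17.8% lower and 35.9% higher. Of the 3 scaffold proteins of the multi-synthetase complex, EEF1E1 fell 1.16-fold and AIMP1 was 1.11-fold higher, a call lost under median-ratio rescaling and quantile normalization, while AIMP2 was not called. All 5 subunits of elongation factor 1, which carries charged tRNA to the ribosome, fell, with EEF1A2 at 770.4 ± 17.5 and 580.8 ± 31.6 TPM. EEF1D and EEF1B2 fell 1.23-fold and 1.195-fold. Under quantile normalization 3 of the 5 were lower and 1 was higher. Of 4 free-standing editing factors, which counter the mischarging of tRNA, DTD2 rose 1.46-fold and DTD1 was 1.11-fold lower, the latter lost without Ctrl 3.

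Mitochondrial partners of the synthetases gave no uniform direction. PET112 (GATB) and GATC take part in converting glutamyl-tRNA to glutaminyl-tRNA in mitochondria, and MTFMT formylates the initiator tRNA. These 3 were called higher by 1.24-fold, 1.12-fold and 1.12-fold. All 3 calls were lost under median-ratio rescaling (PET112 also turned to -0.02 on the log2 scale with the length trend removed). QRSL1, the remaining gene of the 4 listed for amidation and formylation, was not called, at a log2 fold change of -0.06. Under median-ratio rescaling and under quantile normalization none of the 4 was higher and 1 was lower. Of 11 mitochondrial translation factors 5 fell and 3 were called higher, beside 17.8% and 35.9% of all tested genes. ICT1 (MRPL58) and MTRF1L, which release peptide chains from ribosomes, fell 1.27-fold and 1.30-fold, and the ribosome recycling factor MRRF fell 1.19-fold. C12orf65 (MTRFR), GFM2 and MTIF3 were 1.21-fold, 1.13-fold and 1.10-fold higher, and none of these 3 was higher under quantile normalization.

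Genes that make and modify the tRNA itself were mixed. Of 27 processing, modification and export genes 11 rose and 7 fell, beside 35.9% and 17.8% of all genes. With quantile normalization 5 rose and 12 fell, beside 23.8% and 29.3% of all genes. NSUN2, a tRNA cytosine methyltransferase, and RPP38, a subunit of RNase P, each rose 1.31-fold, while METTL1, which with WDR4 methylates guanine in tRNA, fell 1.38-fold. ELAC1 was close to the limit of detection at 0.795 and 1.47 TPM, and WDR4 and TRMT61A were each 1.31-fold lower, with calls that were lost under some alternatives.

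Of 22 genes for RNA polymerase III, which transcribes tRNA genes, and its factors, 14 rose and 5 fell. Over all tested genes 35.9% rose and 17.8% fell. GTF3C4, a subunit of TFIIIC, rose 1.87-fold, POLR3E 1.48-fold and CRCP 1.31-fold. POLR3G, an alternative subunit of the polymerase, fell 2.21-fold, from 10.7 ± 0.270 to 4.86 ± 0.252 TPM, GTF3A fell 1.70-fold and BRF2 1.18-fold. Under quantile normalization 6 rose and 5 fell, beside 23.8% and 29.3% of all tested genes. Of 6 genes that make and use selenocysteinyl-tRNA 4 rose and none fell, with SEPSECS at 1.44-fold, SEPHS2 at 1.202-fold and EEFSEC at 1.14-fold, and under quantile normalization 2 rose and 2 fell.

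**Figure D4:**
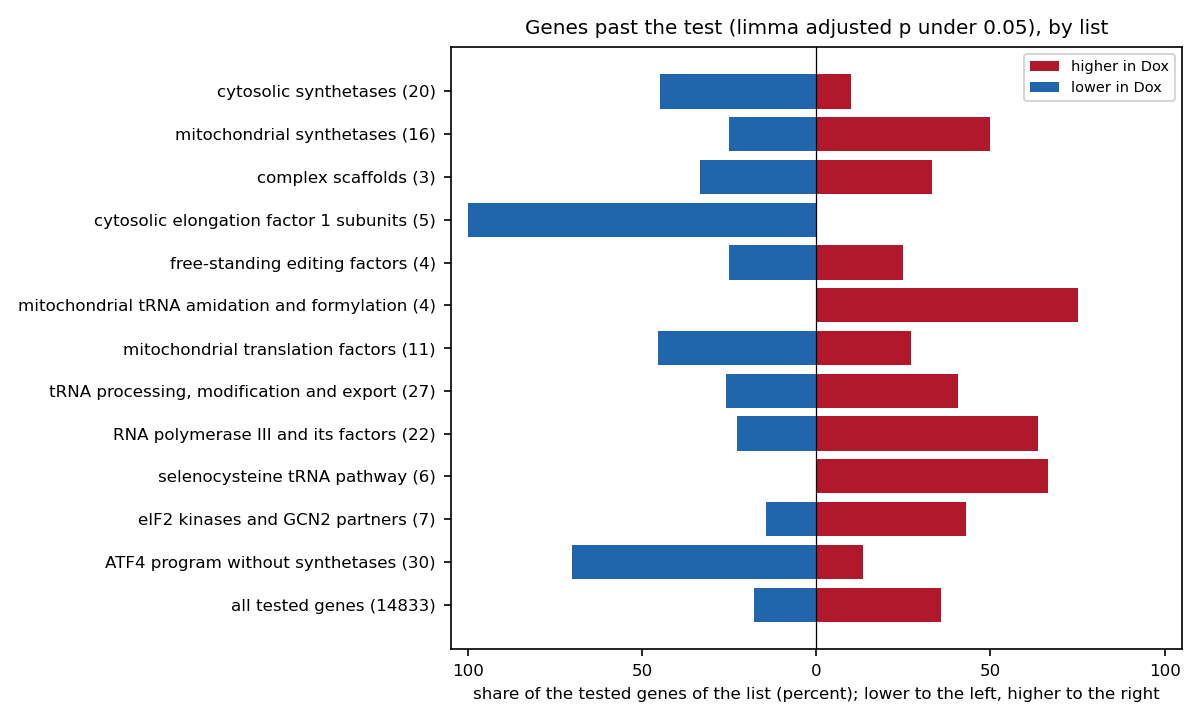
Percent of the tested genes of each list called higher or lower in Dox, beside the same for all 14833 tested genes (35.9% and 17.8%). The cytosolic synthetases, the elongation factor 1 subunits and the ATF4 program lean to lower values. The mitochondrial synthetases lean to higher ones, as do the RNA polymerase III, amidation and formylation, and selenocysteine lists, among others.

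The counts of synthetase calls moved with the scaling between libraries. Median-ratio rescaling shifted the median of all genes by -0.10, and 13 cytosolic genes were then lower and 1 higher, with 26.6% of all genes lower. The same rescaling left 5 mitochondrial genes higher and 4 lower, with 26.7% of all genes higher. Quantile normalization, which shifted the median by -0.13, gave 13 lower and 1 higher cytosolic genes and 4 higher and 4 lower mitochondrial ones, beside 29.3% lower and 23.8% higher over all genes. Relative to the median of all genes the cytosolic median was -0.14 as reported, -0.15 when rescaled by median ratio and -0.12 when quantile-normalized. The mitochondrial median on this relative scale was 0.11, 0.11 and 0.10. With each library's trend of expression with gene length removed, 15 cytosolic genes were lower and 1 higher and 4 mitochondrial genes were higher and 4 lower, beside 31.8% lower and 22.8% higher over all genes. The 6 genes newly lower there were FARSA, HARS, MARS, CARS, DARS and QARS, the last 3 at log2 fold changes of -0.24, -0.12 and -0.11. VARS2 turned to -0.04. The decreases of EPRS, IARS, LARS, TARS, VARS, YARS and CARS2, among others, were over 1.5 times as large as reported. IARS2, NARS2 and WARS2 also stayed lower in that setting. The 9 cytosolic decreases, the increases of WARS, MARS2, TARS2 and HARS2 and the decrease of CARS2 were called under all 15 alternatives.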

How the data were processed

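RNA from C4-2 cells was sequenced as TruSeq stranded mRNA libraries, 3 without and 3 with Dox, grouped by sample title. Per the submitters' processing notes, the tools were FastQC 0.11.2, STAR 2.5.3a, featureCounts and edgeR, with hg19. The sources used here give neither the annotation release nor the strand setting. The deposited values are TPM, made by the authors, and each library sums to 1000000, so they are relative within a library. A synthetase symbol was matched to its first listed row (222 listed genes repeat an earlier symbol). Newer names of the cytosolic genes mostly add a 1 (AARS1).

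The test was limma 3.58.1 (R 4.3.3) with a mean-variance trend, applied to log2(TPM + 1) of genes reaching 1 TPM in 3 or more libraries. It was two-sided, without a replicate block, with p-values adjusted by Benjamini-Hochberg over all tested genes and a threshold of 0.05. The script was tested on simulated data. Folds without "log2" are ratios of mean TPM. Whole reads were recovered from the TPM values within 0.01 reads, 9115 genes with GENCODE 29 lengths and 5718 with the smallest whole length that fitted. On this scale 3 reads on 1 kb are 0.335 to 0.401 TPM, a floor for counting error only. Ratios between genes were compared by exact permutation.

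Alternatives were a pseudocount of 0.1, no filter, a filter at a mean of 5 TPM, quantile normalization, median-ratio rescaling, no variance trend, voom on recovered reads, a block for replicate number and each library left out. A loess fit (span 0.3) that takes out the dependence on gene length in each library was chosen after seeing the data. All 36 members are accounted for, and of each other list up to 3 called genes per direction are named, plus YAP1, CTGF, CYR61, MYC, ATF4 and EIF2AK4. AIMP2 and QRSL1 were named after their values were seen. Some genes that meet this rule are not reported here. Members and lists were chosen with earlier results of these data known. Promoters are from RefSeq (GRCh38.p14, 30 members matched), and no hg19 positions are given. Figures were drawn with matplotlib 3.10.9.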

Additional observations from a re-analysis of the deposited data

How the results depend on the processing

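The 10 lower ratios of cytosolic to mitochondrial transcript were lower under a pseudocount of 0.1 and without each library (10 to 10). Ratios under quantile normalization or with the length trend removed are not given here. The genes of a pair can differ in length (8436 bases for HARS and 3422 for HARS2), so those settings could move a ratio. Cytosolic calls numbered 10 to 12 without each library (1 to 3 higher, 9 to 9 lower), mitochondrial calls 9 to 13 (7 to 11 higher, 1 to 4 lower), and calls over all genes 6752 to 7589 (4445 to 5278 higher, 2204 to 2417 lower). The cytosolic increases were 1 under median-ratio rescaling, quantile normalization, no variance trend, voom and removal of the length trend, the gene lost being SARS, and the decreases were 15 with the length trend removed. The mitochondrial increases were 5 under median-ratio rescaling, 4 under quantile normalization and 4 with the length trend removed, and the decreases were 2 with no filter and 2 with no variance trend. Over all genes, 3536 were higher and 4348 lower under quantile normalization, and 3381 higher and 4720 lower with the length trend removed. Directions turned for CARS (-0.14 under quantile normalization, -0.24 with the length trend removed), DARS (-0.10 under median-ratio rescaling, -0.12 with the length trend removed) and SARS (-0.0039 and -0.017 under the same 2 settings). They also turned with the length trend removed for QARS (-0.11), VARS2 (-0.038), PET112 (-0.019), EIF2AK1 (-0.042) and EIF2AK4 (-0.18). The cause of these changes was not tested. With a replicate block 7841 genes were called, with 3 cytosolic increases, 9 cytosolic decreases, 10 mitochondrial increases and 3 mitochondrial decreases. Deviations from the group mean correlated at -0.01, 0.06 and 0.00 between same-numbered libraries and at -0.04 to 0.04 between the others. Such deviations from a mean of 3 libraries cannot tell whether the numbers pair the libraries. MARS2, with 84 to 174 reads, has the thinnest support of the 36.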
